A study of Mus musculus with 6 samples.

Results

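Immediate early genes are switched on within minutes of a stimulus, without the need for new protein, and their mRNAs are short-lived. Fos and Jun proteins pair through leucine zippers to form AP-1, a transcription factor that binds DNA as a dimer. Atf3 is a CREB family factor that can pair with Jun, while Egr1 and Nr4a1 are transcription factors of other families. In the retina, Jun and Atf3 are known for their induction in injured retinal ganglion cells (RGCs), and Fos for its response to light and to glutamate. The set examined here was fixed by symbol and held 10 genes, namely Fos, Fosb, Fosl2, Jun, Junb, Jund, Egr1, Atf3, Ier2 and Nr4a1. All 10 genes had at least 1 listed transcript, and 9 were above 0 in the transcripts common to every library, out of 25202 such genes in all. Jund was listed for 2 of the 6 libraries only.

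The RNA came from retinas of wild type C57BL/6 mice at postnatal week 5. All mice received an intravitreal injection of NMDA (2 μl, 100 mM), an agonist of glutamate receptors that damages RGCs, so an uninjured retina was not among the libraries. The 3 NMDA + SCF libraries came from mice given recombinant stem cell factor (SCF, the ligand of the receptor tyrosine kinase c-kit, 2 μl at 50 ng/μl) 2 days after NMDA, and the 3 NMDA + PBS libraries from mice given PBS. Retinas were taken 1 week after the second injection. How many mice stand behind a library is not given in the sources used here, so p-values measure the spread between these libraries, which may be technical. The comparison asks which transcripts differ in the injured retina when SCF is supplied.

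Levels are given as FPKM (fragments scaled to transcript length and to the fragments of the library), summed over the transcripts of a gene, which permits levels of different genes to be set side by side. The libraries held 44925938 to 48783182 clean reads. The values are whole multiples of 1 fragment for 98.4 to 98.5% of entries, and the totals implied are 2915684, 3354888 and 3742304 counted fragments on Ensembl transcripts in NMDA + PBS and 2826014 to 2888729 in NMDA + SCF, so low values rest on few fragments. The files used 2 transcript lists. List A served the 3 NMDA + SCF libraries and NMDA + PBS replicate 1, and list B served NMDA + PBS replicates 2 and 3 only. Across genes, NMDA + PBS replicate 1 correlated at 0.932 to 0.936 with the NMDA + SCF libraries and at 0.820 and 0.781 with NMDA + PBS replicates 2 and 3. List and treatment therefore cannot be told apart for NMDA + PBS replicates 2 and 3, and each member with a mean of at least 1 FPKM in both lists is also given against NMDA + PBS replicate 1 alone. Of the retinal markers, the Müller cell gene Glul was at 1960 to 3899 FPKM in every library. The other Müller cell markers were far lower, with Slc1a3 at 36.7 to 68.6 FPKM and Rlbp1 at 6.69 to 13.8 FPKM. Vim was at 0.435 to 1.79 FPKM, and Aqp4 had no value above 0. Of the 7 RGC markers, Pou4f1 had no value above 0, and the summed level of the list was 219 to 463 FPKM in NMDA + PBS and 261 to 318 FPKM in NMDA + SCF.

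Promoter sequence is shown for the 3 members that the results turn on and for which a window was at hand, Fos, Jun and Junb. Each line holds the 250 bases before the start site of the RefSeq transcript (GRCm38.p6), written 5′ to 3′ on the gene's own strand, and capitals mark matches to the motifs named after the sequences. The windows are chr12:85473640-85473889 on the plus strand for Fos, chr4:95052223-95052472 on the minus strand for Jun and chr8:84978749-84978998 on the minus strand for Junb.
Fos: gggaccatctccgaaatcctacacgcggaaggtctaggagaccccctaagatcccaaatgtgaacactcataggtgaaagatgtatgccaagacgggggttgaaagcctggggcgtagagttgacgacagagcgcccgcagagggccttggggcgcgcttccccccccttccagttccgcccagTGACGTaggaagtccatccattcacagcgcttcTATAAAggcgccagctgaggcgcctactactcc
Jun: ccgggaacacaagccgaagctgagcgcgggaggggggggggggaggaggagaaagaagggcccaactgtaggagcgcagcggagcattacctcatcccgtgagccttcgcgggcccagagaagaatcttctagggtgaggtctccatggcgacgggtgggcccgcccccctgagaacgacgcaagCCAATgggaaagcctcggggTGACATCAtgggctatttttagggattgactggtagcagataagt
Junb: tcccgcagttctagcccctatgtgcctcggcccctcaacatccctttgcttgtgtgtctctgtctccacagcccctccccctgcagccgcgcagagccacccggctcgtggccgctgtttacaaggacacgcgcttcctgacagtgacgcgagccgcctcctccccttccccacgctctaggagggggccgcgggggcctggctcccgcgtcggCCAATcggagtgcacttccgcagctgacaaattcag

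The capitals in Fos are the CRE core TGACGT (part of the site bound by CREB and ATF proteins), 66 to 61 bases before the start, and a TATA box (TATAAA), 33 to 28 bases before it. In Jun they are a CCAAT box (CCAAT) at 65 to 61 bases and the Jun-type site TGACATCA, a variant of the AP-1 site known for binding Jun and ATF dimers, at 45 to 38 bases. In Junb the capitals are a CCAAT box at 36 to 32 bases. The letters were searched on both strands in windows of the 250 bases before each start. Of these windows, 32851 were read in all and 8 belonged to members (Ier2 and Egr1 were not matched). The CRE core was present in 6.47% of all windows and in those of Fos and Atf3, and it overlaps the full CRE (TGACGTCA), which was in 1.55% of windows and in no member. TGACATCA was in 2.93% of windows and in Jun alone among the members, and the AP-1 site TGANTCA was in 6.75% and in no member. TATAAA was in 12.4% of windows and in Fos alone among the members, CCAAT was in 33.8% and in Jun and Junb, and the CArG box, the site of serum response factor, was in 1.47% and in no member. A match describes letters in the window and was not tested as a binding site. Sequence outside the 250 bases was not searched, so a missing match does not mean that the gene lacks the motif.

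At the level of the whole set, the data did not show a common direction. Of the 9 genes with values, 4 had a positive and 5 a negative log2 fold change (NMDA + SCF against NMDA + PBS, on log2(FPKM + 1)), with a median of -0.02 beside -0.01 over all 25202 genes. With limma and Benjamini-Hochberg adjustment over all genes, 0 of the 9 passed an adjusted p of 0.05, beside 0.0% of all genes, and the adjusted p of the members ran from 0.536 to 0.993. At an unadjusted p of 0.05, 1 member (Fos, lower in NMDA + SCF) was below the threshold, beside 9.22% of all genes (4.9% lower and 4.33% higher). limma's voom on the recovered fragments called 2 of all genes and 0 members. The groups did not overlap for 2 members, Jun and Ier2, both higher in NMDA + SCF, beside 7.63% of all genes in that direction and 11.8% of genes with a mean of at least 1 FPKM, and for 0 members in the other direction, beside 6.45%. Among single transcripts, 0 of 45261 passed an adjusted p of 0.05 (0.0%), and at an unadjusted p only Fos-201 among those of the members was below 0.05, beside 7.98% of all transcripts, while the single transcripts of Jun and Ier2 were higher without overlap, beside 6.32%. In bulk retina, fewer cells of a type and less RNA per cell cannot be told apart.

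**Figure D1:**
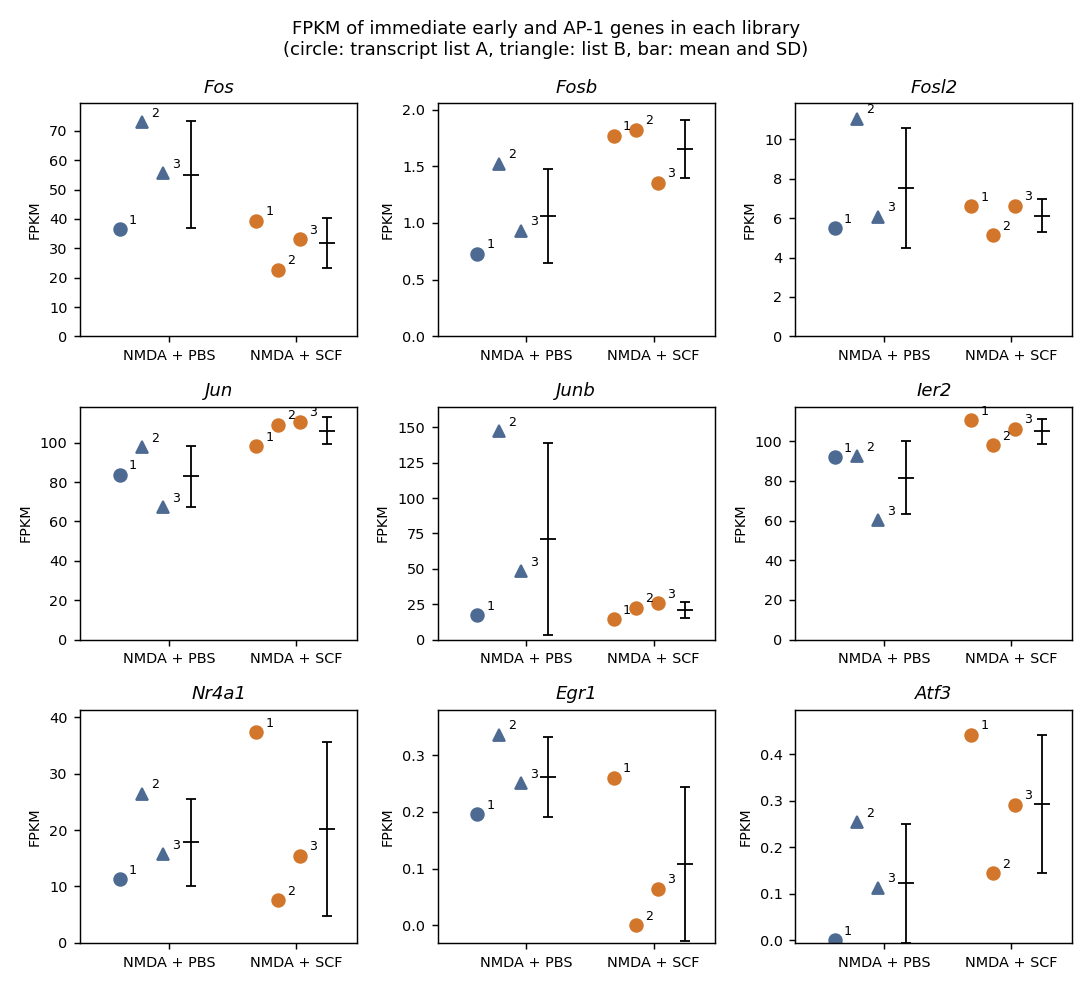
FPKM of the 9 genes in each library, with NMDA + PBS at the left and NMDA + SCF at the right of each panel; numbers are replicates, circles are list A libraries, triangles list B libraries, and bars the mean and SD of 3 libraries. Jun and Ier2 are higher in all 3 NMDA + SCF libraries, whereas the high Fos and Junb values of NMDA + PBS belong to replicates 2 and 3.

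Among the Fos family, Fos itself (GRCm38, chromosome 12, 85473890 to 85477273, plus strand), the prototype partner of Jun in AP-1, was at 36.5, 73.0 and 55.7 FPKM in NMDA + PBS replicates 1, 2 and 3. In NMDA + SCF replicates 1, 2 and 3 it was at 39.5, 22.8 and 33.2 FPKM. The 2 libraries of list B were above all others, and NMDA + PBS replicate 1 lay within the NMDA + SCF range, so the groups overlapped. The means were 55.1 ± 18.3 (SD, n = 3) and 31.8 ± 8.43 FPKM (SD, n = 3), resting on 167 to 612 fragments per library. The log2 fold change was -0.75 (SE 0.31, 95% interval -1.47 to -0.03), with an unadjusted p of 0.0428 and an adjusted p of 0.536 in limma and a two-sided exact permutation p of 0.2, where 0.1 is the smallest p that 3 against 3 allows. Against NMDA + PBS replicate 1 alone the log2 difference was -0.23, and without that library the fold change was -1.02. The single transcript listed, Fos-201, is the protein-coding one, and its CRE core and TATA box are those shown above.

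Fosb, a paralog known for the stable splice form ΔFosB in chronically stimulated neurons (chromosome 7, 19302696 to 19310051, minus strand), was low, at 0.728, 1.52 and 0.931 FPKM in NMDA + PBS and 1.77, 1.82 and 1.35 FPKM in NMDA + SCF. NMDA + PBS replicate 2 lay within the NMDA + SCF range and the other two were below it. Its log2 fold change was 0.38 (SE 0.31, 95% interval -0.35 to 1.10, limma adjusted p = 0.688, exact permutation p = 0.2) on 9 to 23 fragments per library, and the difference from NMDA + PBS replicate 1 alone was 0.61. The only Fosb transcript listed was Fosb-204, which the annotation calls a retained intron. Of the 7 transcripts annotated, 6 are protein-coding, and none of these was read. Whether the fragments on Fosb-204 came from spliced or unspliced RNA cannot be told from these values.

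Fosl2, which encodes the Fos-related antigen Fra-2, was at 5.48, 11.0 and 6.06 FPKM in NMDA + PBS and 6.61, 5.14 and 6.62 FPKM in NMDA + SCF (chromosome 5, 32135801 to 32157842, plus strand). NMDA + PBS replicate 2 was the highest library and the other 5 lay close together, so the groups overlapped. For Fosl2 the log2 fold change was -0.21 (SE 0.30, 95% interval -0.91 to 0.49, limma adjusted p = 0.807, exact permutation p = 0.8). It was 0.07 without NMDA + PBS replicate 2, and the difference from NMDA + PBS replicate 1 alone was 0.13. Its 2 retained-intron transcripts held at most 2 fragments in a library, and the protein-coding transcript carried the rest.

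Among the Jun family, Jun (chromosome 4, 95049034 to 95052222, minus strand, a gene without introns), whose product is phosphorylated by JNK in injured neurons, was at 83.7, 97.6 and 67.2 FPKM in NMDA + PBS. It was at 98.2, 109.2 and 110.6 FPKM in NMDA + SCF. All 3 NMDA + SCF libraries were above all 3 NMDA + PBS libraries, although NMDA + SCF replicate 1 and NMDA + PBS replicate 2 were close. The means were 82.8 ± 15.2 and 106.0 ± 6.80 FPKM (SD, n = 3 each) on 909 to 1238 fragments. The log2 fold change of 0.37 (SE 0.19, 95% interval -0.08 to 0.81) gave a limma adjusted p of 0.552 and an exact permutation p of 0.1. The difference from NMDA + PBS replicate 1 alone was 0.33, and leaving out each library in turn gave 0.23 to 0.49. The antisense gene Junos overlaps Jun on the plus strand, and since the strand setting of the counting is not given in the sources used here, reads of the pair cannot be told apart.

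Junb, the paralog that can restrain Jun at some targets, was the most uneven member, at 17.2, 147.3 and 48.5 FPKM in NMDA + PBS (chromosome 8, 84974484 to 84978718, minus strand). In NMDA + SCF it was at 14.4, 22.6 and 25.5 FPKM. The highest library, NMDA + PBS replicate 2, was 10.3 times the lowest, NMDA + SCF replicate 1. Both list B libraries were above all list A libraries, and NMDA + PBS replicate 1 was within the NMDA + SCF range. Junb-201, the protein-coding transcript, carried 1056 of the 1057 fragments in NMDA + PBS replicate 2 and all 89 in NMDA + SCF replicate 1. The means were 71.0 ± 67.9 and 20.8 ± 5.78 FPKM (SD, n = 3 each). For Junb a log2 fold change of -1.26 (SE 0.69, 95% interval -2.88 to 0.35) gave a limma adjusted p of 0.568 and an exact permutation p of 0.3. It was -0.50 when NMDA + PBS replicate 2 was left out and -2.01 when replicate 1 was, and against NMDA + PBS replicate 1 alone the difference was 0.23. The locus overlaps Prdx2 on the opposite strand.

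Several glial and myeloid genes were also high in the library with the highest Junb level, NMDA + PBS replicate 2. Gfap, the filament gene of astrocytes and reactive Müller cells, was at 46.5, 261 and 32.3 FPKM in NMDA + PBS and 86.3, 182 and 160 FPKM in NMDA + SCF. The other astrocyte markers did not share this pattern. S100b was at 49.9, 19.0 and 11.1 FPKM in NMDA + PBS and 30.7, 39.5 and 32.3 FPKM in NMDA + SCF. Pax2 was at most 0.330 FPKM in any library. Microglial genes (4 of 6 with a value, Aif1 and P2ry12 without one) summed to 140, 290 and 35.4 FPKM in NMDA + PBS. In NMDA + SCF the sum was 219 to 301 FPKM. C1qa and C1qb made up most of this sum, and Cx3cr1 was at most 0.0654 FPKM in any library. Lyz2, a gene of monocytes and macrophages, was highest in NMDA + PBS replicate 2, where the list of neutrophil and monocyte markers (3 of 5 with a value) summed to 350 FPKM. The sum was 10.3 to 350 FPKM over NMDA + PBS and 102 to 176 FPKM over NMDA + SCF. Lyz2 made up nearly all of it, Ly6c2 and Ccr2 were at most 0.243 FPKM in any library, and S100a8 and S100a9 had no value above 0. Whether any of these cells had a part in the Junb level was not tested.

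Jund, the family member known for steady expression, was read in the 2 list B libraries only, at 143.7 FPKM (953 fragments) in NMDA + PBS replicate 2 and 55.2 FPKM (409 fragments) in replicate 3 (chromosome 8, 70698949 to 70700616, plus strand). It overlaps Gm11175 on the opposite strand, and no comparison between the groups could be made for it. In NMDA + PBS replicate 2 the Jund and Junb levels were close, at 143.7 and 147.3 FPKM, and in replicate 3 they were 55.2 and 48.5 FPKM.

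**Figure D2:**
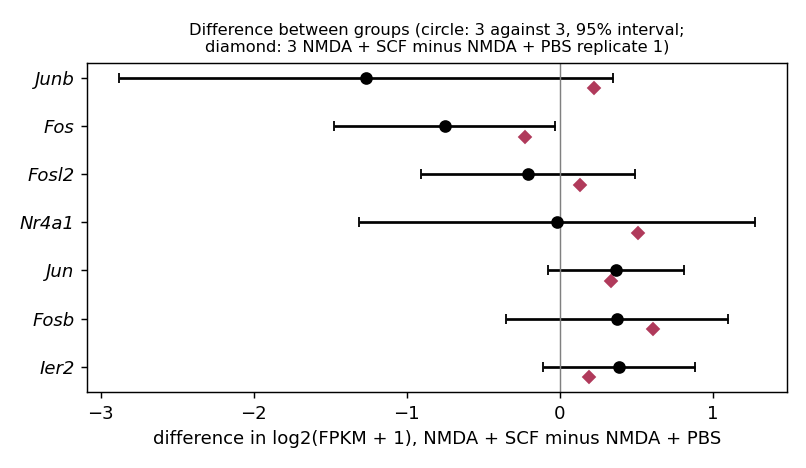
Difference in log2(FPKM + 1), NMDA + SCF minus NMDA + PBS, for the 7 members with a mean of at least 1 FPKM; circles with bars are the limma estimate of 3 against 3 libraries with its 95% interval, and diamonds are the mean of the 3 NMDA + SCF libraries minus NMDA + PBS replicate 1. The interval of Fos ends at -0.03 and the other 6 include 0, and the diamonds of Junb, Fosl2 and Nr4a1 lie on the opposite side of 0 from their circles.

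Of the members outside the Fos and Jun families, Ier2, a small nuclear protein gene without introns, was expressed at the level of Jun (chromosome 8, 84661331 to 84662852, minus strand). It was at 91.9, 92.5 and 60.2 FPKM in NMDA + PBS and 110.5, 98.0 and 106.4 FPKM in NMDA + SCF. All 3 NMDA + SCF libraries were above all NMDA + PBS libraries, with NMDA + PBS replicate 3 the lowest. The means were 81.5 ± 18.5 and 104.9 ± 6.36 FPKM (SD, n = 3 each) on 407 to 576 fragments. The log2 fold change of 0.39 (SE 0.21, 95% interval -0.11 to 0.88) gave a limma adjusted p of 0.568 and an exact permutation p of 0.1, and the difference from NMDA + PBS replicate 1 alone was 0.19. Without NMDA + PBS replicate 3 the fold change was 0.18.

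Nr4a1, the orphan nuclear receptor Nur77, was at 11.3, 26.4 and 15.7 FPKM in NMDA + PBS and 37.4, 7.59 and 15.5 FPKM in NMDA + SCF (chromosome 15, 101254269 to 101274795, plus strand). The NMDA + SCF libraries held both the highest and the lowest value, so the groups overlapped fully. The log2 fold change was -0.02 (SE 0.55, 95% interval -1.31 to 1.27, limma adjusted p = 0.993, exact permutation p = 0.9). It was 0.50 without NMDA + SCF replicate 2, and the difference from NMDA + PBS replicate 1 alone was 0.51. The value came from a protein-coding model of 344 bases and a retained intron, on 14 to 57 fragments in all. A longer protein-coding model of 2553 bases was in list B only, at 1.28 and 0.441 FPKM in NMDA + PBS replicates 2 and 3.

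Egr1, a zinc finger factor that usually stands beside Fos among activity-induced genes, was near the limit of detection, at 0.197, 0.336 and 0.251 FPKM in NMDA + PBS and 0.260, 0 and 0.0645 FPKM in NMDA + SCF. These were 3, 6 and 5 fragments against 4, 0 and 1, and NMDA + PBS replicate 1 lay within the NMDA + SCF range (limma adjusted p = 0.659). Only 1 of its 2 annotated transcripts was listed. Atf3, the injury-induced CREB family factor, was at 0, 0.253 and 0.114 FPKM in NMDA + PBS and 0.441, 0.145 and 0.291 FPKM in NMDA + SCF, which is at most 3 fragments in any library (limma adjusted p = 0.680). Only 1 of the 3 annotated Atf3 transcripts was listed. No fold is given for either gene, and a difference was not detectable on so few counted fragments.

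In the order of the levels, Fosl2 was sixth and Fosb seventh in all 6 libraries. Egr1 and Atf3 were below them and changed places between libraries, on at most 6 fragments. Jun and Ier2 held the top places in 5 libraries, and in NMDA + PBS replicate 2 Junb was above both. The ratio of Ier2 to Jun stayed between 0.897 and 1.12, so this pair did not differ beyond the spread. The ratio of Fos to Jun was 0.436, 0.748 and 0.829 in NMDA + PBS and 0.402, 0.208 and 0.300 in NMDA + SCF. All 3 NMDA + PBS ratios were above all NMDA + SCF ratios, with NMDA + PBS replicate 1 close to NMDA + SCF replicate 1. The highest ratios were those of the list B libraries. This ratio was not among the planned comparisons, and the share of gene pairs that separate in this way was not counted. The ratio of Junb to Jun was 0.205, 1.51 and 0.722 in NMDA + PBS and 0.146, 0.207 and 0.231 in NMDA + SCF, and NMDA + PBS replicate 1 lay within the NMDA + SCF range.

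The 2 transcript lists split the members in part. Both list B libraries were above all 4 list A libraries for 2 members, Fos and Junb, beside 14.4% of all genes, and below them for 0 members, beside 10.9%. NMDA + PBS replicate 1 lay within the NMDA + SCF range for 5 of 9 members, beside 52.6% of all genes. It was below all NMDA + SCF libraries for the other 4 (Fosb, Jun, Atf3 and Ier2), and the share of all genes below was not counted. In that library Atf3 held 0 fragments and Fosb 9. The share of total FPKM from mitochondrial genes was 20.1, 13.7 and 17.0% in NMDA + PBS and 10.4, 9.93 and 10.4% in NMDA + SCF, so that every value in NMDA + PBS was scaled against a larger mitochondrial part. After mitochondrial genes were left out, the groups of Jun and Ier2 overlapped, and Fos was lower in all NMDA + SCF libraries (log2 fold change -0.90, against 0.23 for Jun and 0.24 for Ier2). Of all genes, 8.81% were then lower and 4.19% higher without overlap. With upper quartile or median-of-ratios scaling, Jun was still higher without overlap, beside 6.41 and 5.38% of all genes. Ier2 overlapped under both, and Fos was lower without overlap, beside 6.56 and 7.59% of all genes. With fragments scaled by TMM factors, Jun alone did not overlap, beside 5.92% of all genes that were higher.

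**Figure D3:**
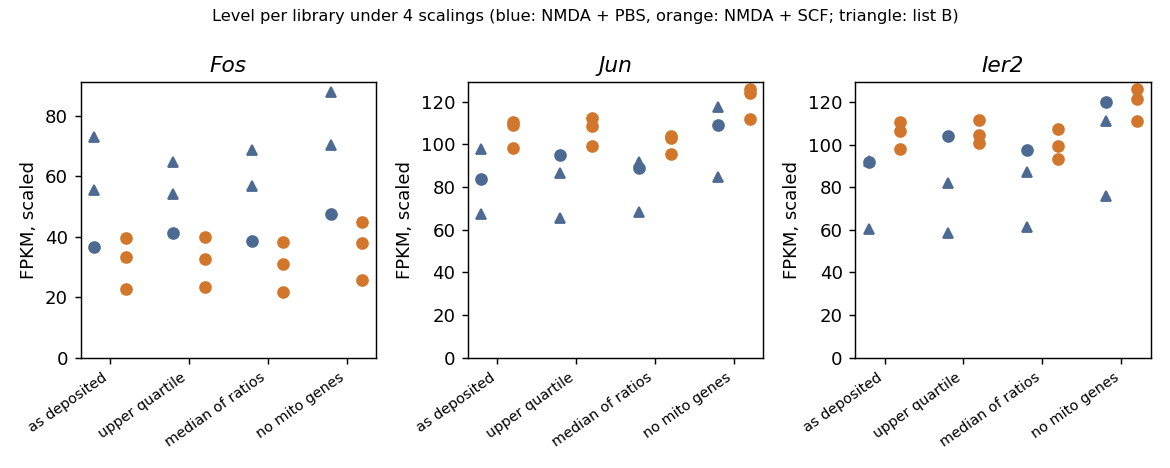
Level of Fos, Jun and Ier2 in each library as deposited and under 3 other scalings (vertical axis, scaled FPKM); blue is NMDA + PBS, orange NMDA + SCF, and triangles are list B libraries. Fos separates the groups under each of the 3 other scalings, with NMDA + PBS replicate 1 just above the NMDA + SCF libraries. Under these, 6.56 to 8.81% of all genes were lower without overlap. Ier2 separates the groups only as deposited among these 4, where 7.63% of all genes were higher without overlap.

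Some markers of other tissues also differed with the groups. Lens genes (8 of 9 with a value, Bfsp1 without one) summed to 19.7 to 177 FPKM in NMDA + PBS and 388 to 7297 FPKM in NMDA + SCF. Of the 8, 6 were higher in NMDA + SCF without overlap, beside 7.63% of all genes. Ciliary body and iris genes (5 of 5) summed to 25.9 to 70.7 FPKM in NMDA + PBS and 57.4 to 126 FPKM in NMDA + SCF. Of the 5, 4 were higher without overlap, beside the same share, and 1 of these, Otx1, was at most 0.329 FPKM in any library. Pmel made up most of that sum, and its groups overlapped. Cornea genes (2 of 4 with a value) did not go the same way. Krt5 was at 9.36 to 30.2 FPKM in NMDA + PBS and 1.86 to 5.26 FPKM in NMDA + SCF, lower without overlap, and Krt12 overlapped. The part of these tissues in the Jun and Ier2 values was not tested.

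Genes around the members were read from 9 lists, which together held 172 genes, 147 of them with a value. With limma, 0 of the 147 passed an adjusted p of 0.05 (smallest 0.536). At an unadjusted p of at most 0.05 were 15 higher and 9 lower genes, which is 16.3% beside 9.22% of all genes. Fitted alone, genes with a mean of at least 1 FPKM had 1723 of 14013 at that limma threshold. Groups did not overlap for 20 higher genes (13.6%, beside 7.63% of all genes and 11.8% of those with a mean of at least 1 FPKM) and 11 lower genes (7.48%, beside 6.45% of all genes). The median log2 fold change was 0.07, beside 0.07 for all genes with a mean of at least 1 FPKM and -0.01 for all genes. Both list B libraries were above all list A libraries for 23 of the 147 and below them for another 23 (15.6% each), beside 14.4% and 10.9% of all genes.

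Of the other AP-1 and related bZIP genes, 18 of 20 had a value, and the median log2 fold change was 0.05. At an unadjusted limma p of at most 0.05 were 3 higher and 0 lower genes, beside 4.33 and 4.9% of all genes. These 3 were Mafg, a small Maf protein, Nrl, the rod fate factor, and Atf4, the factor of the integrated stress response. Nrl was at 104.0, 124.7 and 85.0 FPKM in NMDA + PBS and 161.2, 133.8 and 152.0 FPKM in NMDA + SCF (log2 fold change 0.52, SE 0.20), without overlap of the groups. Atf4 was at 4.78, 4.63 and 3.70 FPKM against 7.59, 5.88 and 7.64 FPKM, again without overlap. Mafg was at 70.9 FPKM in NMDA + PBS replicate 1, 0.0511 and 0 FPKM in the list B libraries and 89.8 to 119 FPKM in NMDA + SCF, so its difference lay mostly between the transcript lists. Cebpd, a bZIP factor of acute inflammation, followed the libraries in which Junb was high, at 0.157, 161.3 and 14.3 FPKM in NMDA + PBS and at most 1.39 FPKM in NMDA + SCF (limma adjusted p = 0.560).

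The other Egr, Nr4a and Ier genes had a value for 8 of 10, with a median of 0.46. At an unadjusted limma p of 0.05 were 1 higher and 0 lower genes, beside 4.33 and 4.9% of all genes. Groups did not overlap for 2 higher genes and 1 lower gene, beside 7.63 and 6.45% of all genes. Ier5l was one of the higher genes, at 10.8, 13.0 and 4.87 FPKM in NMDA + PBS and 13.5, 13.4 and 17.8 FPKM in NMDA + SCF (log2 fold change 0.67, SE 0.35, limma adjusted p = 0.553). The other, and the one at an unadjusted p of 0.05, was Egr3, named after its values were seen, at 0, 0.333 and 0 FPKM against 0.790, 1.95 and 0.575 FPKM. Ier3, a stress-inducible regulator of apoptosis, was at 274, 238 and 175 FPKM in NMDA + PBS and 341, 273 and 284 FPKM in NMDA + SCF, and NMDA + PBS replicate 1 lay within the NMDA + SCF range. Egr4, a close relative of Egr1, was at 2.46, 1.76 and 4.30 FPKM against 1.49, 1.34 and 1.21 FPKM, without overlap (log2 fold change -0.66, SE 0.35, limma adjusted p = 0.560). Unlike Egr1, Egr4 was thus above 1 FPKM in every library, though on 9 to 41 fragments.

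The other immediate early transcription factors had a value for 13 of 18. At an unadjusted limma p of 0.05 were 0 higher and 3 lower genes, beside 4.33 and 4.9% of all genes. These 3 were Nfil3, Npas4 and Crem. Npas4, which is induced selectively by calcium entry in neurons, was at 0.0896, 17.4 and 13.5 FPKM in NMDA + PBS and 0.0882 to 0.175 FPKM in NMDA + SCF. It was high in the 2 list B libraries and near 0 in all 4 list A libraries, so it did not separate the treatments. Crem, the cAMP response modulator, was at 1.66, 3.75 and 6.21 FPKM in NMDA + PBS. In NMDA + SCF it was at 1.40, 0.792 and 1.29 FPKM, without overlap (log2 fold change -1.07, SE 0.43, limma adjusted p = 0.536). These values rested on 7, 19 and 31 fragments against 7, 5 and 6, so replicate 1 of both groups held the same number. The difference from NMDA + PBS replicate 1 alone was -0.31.

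The immediate early effector genes of neurons (16 of 18 with a value) had 1 higher and 3 lower genes without overlap, beside 7.63 and 6.45% of all genes. Homer1, a scaffold of glutamate receptors with an activity-induced short form, was at 17.4, 27.0 and 27.3 FPKM in NMDA + PBS and 13.1, 15.2 and 14.6 FPKM in NMDA + SCF (log2 fold change -0.68, SE 0.22, limma adjusted p = 0.536). Nptx2, a pentraxin of excitatory synapses, was at 92.9, 64.2 and 57.2 FPKM against 96.3, 107.9 and 104.6 FPKM. NMDA + PBS replicate 1 was next to the NMDA + SCF libraries in both genes. Its relative Nptx1 was listed at 0 in all 4 list A libraries and at 54.4 and 47.3 FPKM in list B.

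Feedback inhibitors and mRNA decay factors had a value for 19 of 23. At an unadjusted limma p of 0.05 were 0 higher and 2 lower genes, beside 4.33 and 4.9% of all genes. These 2 were Spred2 and Trib1, both high in list B alone. Btg2, an antiproliferative factor that promotes deadenylation of mRNA, was at 216, 247 and 161 FPKM in NMDA + PBS and 320, 254 and 281 FPKM in NMDA + SCF without overlap (log2 fold change 0.47, SE 0.22, limma adjusted p = 0.545). Its library order at the low end was that of Jun and Ier2, with NMDA + PBS replicate 3 the lowest in all 3 genes.

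Upstream kinases and factors (27 of 32 with a value) had 6 higher and 1 lower gene without overlap. Of all genes, 7.63% were higher (11.8% at a mean of at least 1 FPKM) and 6.45% lower. Camk4, among the 6, was at 8.67 FPKM in NMDA + PBS replicate 1 and 0.0612 and 0.110 FPKM in the list B libraries. It was at 8.80 to 9.97 FPKM in NMDA + SCF, so its difference lay mostly between the transcript lists. Map2k2, which encodes the ERK kinase MEK2, was at 24.4, 23.5 and 19.1 FPKM in NMDA + PBS and 30.2, 36.1 and 37.6 FPKM in NMDA + SCF (log2 fold change 0.61, SE 0.18, limma adjusted p = 0.536). Creb1, which encodes the factor that binds the CRE, was the lower gene, at 2.25, 4.46 and 4.52 FPKM against 1.60, 1.04 and 1.18 FPKM (log2 fold change -1.03, SE 0.34). NMDA + PBS replicate 1 lay between the list B libraries and the NMDA + SCF libraries for Creb1. The Creb1 values rested on 14, 31 and 34 fragments against 11, 6 and 7.

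The neuronal injury genes reported downstream of Jun and Atf3 (17 of 18 with a value) had a median of 0.09. At an unadjusted limma p of 0.05, 3 were higher and 0 lower, beside 4.33 and 4.9% of all genes. Sesn2, a stress-induced inhibitor of mTORC1, was at 36.9, 31.1 and 26.6 FPKM in NMDA + PBS and 48.2, 41.8 and 42.0 FPKM in NMDA + SCF without overlap. Ddit3, the proapoptotic factor CHOP, was at 27.9, 42.6 and 41.3 FPKM against 30.7, 27.0 and 27.5 FPKM, with overlap. Of the AP-1 target genes of injured tissue (16 of 20 with a value), 2 were higher and 0 lower at that threshold, beside the same shares. Hbegf, a ligand of the EGF receptor, was at 11.8, 14.0 and 10.3 FPKM in NMDA + PBS and 18.8, 21.1 and 17.8 FPKM in NMDA + SCF (log2 fold change 0.64, SE 0.19, limma adjusted p = 0.536). This was the only gene of that list that was higher in NMDA + SCF without overlap, and its difference from NMDA + PBS replicate 1 alone was 0.66.

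Stress genes that are known to respond to tissue handling (15 of 15 with a value) had a positive log2 fold change in 14 genes and a median of 0.22. Of the 15 genes, 5 were higher without overlap, beside 7.63% of all genes (11.8% at a mean of at least 1 FPKM), and for 5 genes both list B libraries were below all list A libraries. Rhob, a small GTPase, was at 109, 93.2 and 73.1 FPKM in NMDA + PBS and 134, 138 and 128 FPKM in NMDA + SCF (log2 fold change 0.55, SE 0.19, limma adjusted p = 0.536). Hspa1a, the inducible HSP70, was at 16.3, 19.9 and 14.9 FPKM against 20.8, 28.7 and 27.3 FPKM. Both were higher in the same 3 libraries as Jun and Ier2, and the part of handling stress in those values was not tested.

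**Figure D4:**
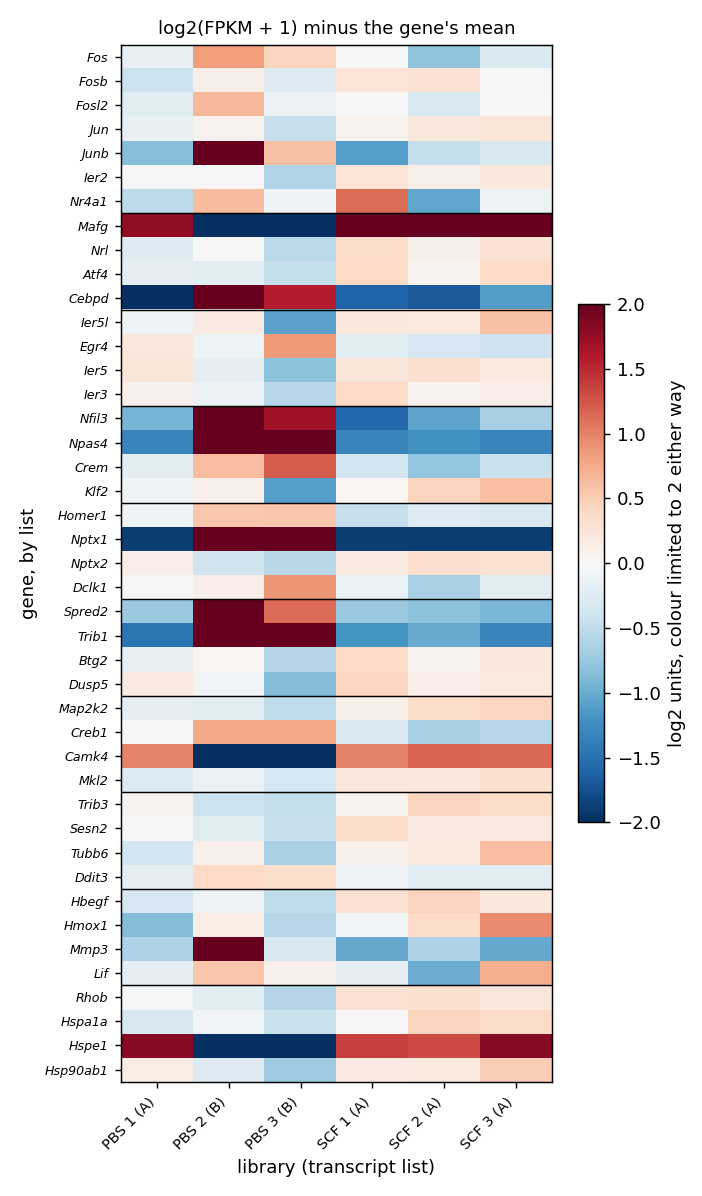
Members with a mean of at least 1 FPKM (top block) and the named genes of the 9 lists (blocks below, in the order of the text) by library; colour is log2(FPKM + 1) minus the gene's mean over the 6 libraries, red above and blue below, limited to 2 either way. NMDA + PBS replicates 2 and 3 (list B) differ from the other 4 libraries for Mafg, Cebpd, Npas4, Nptx1 and Trib1, and among the members Junb has the deepest colours.

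Genes whose library pattern was most like the members were sought among 14006 genes with a mean of at least 1 FPKM, by Pearson correlation over the 6 libraries, which share their depth and transcript lists. For the mean of the members, the closest were Cacna2d4 (r = 0.989), AC112142.1 (0.981), Pex5 (0.978), Bub1b (0.974) and Eed (0.973). Cacna2d4, a calcium channel subunit of photoreceptors, was at 83.8, 170.7 and 107.0 FPKM in NMDA + PBS and 113.9, 79.5 and 100.7 FPKM in NMDA + SCF, with its highest value in NMDA + PBS replicate 2. That library was also the highest for 4 of 9 members, beside 18.8% of all genes. For Fos alone the closest genes were Wrb (r = 0.998), Gm17034 (0.991), Acox3 (0.990), Apobec3 (0.987) and Mettl14 (0.984). Wrb was at 2.79, 6.67 and 5.27 FPKM in NMDA + PBS and 3.07, 1.30 and 2.40 FPKM in NMDA + SCF, the same order of libraries as Fos.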

How the data were processed

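RNA-seq values of 3 NMDA + PBS and 3 NMDA + SCF libraries of mouse retina were taken from the files. For poly(A)-enriched RNA the authors deposited FPKM per transcript and a table of library totals, from which clean read counts (44925938 to 48783182) and the percent of Q30 bases (92.92 to 94.32) and of reads kept were used. The aligner and counter are not given in the sources used here. The submitters' processing notes name mm9, whereas 98.2% of 63313 Ensembl transcripts had their GENCODE M21 (GRCm38) position, so GRCm38 is used. Gene levels are sums of FPKM over the 46933 Ensembl transcripts that both lists hold. Transcripts without a gene name (8.85 to 11.4% of the FPKM sum) were left out. The count test for raw gene counts was not used, since the files hold FPKM.

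limma 3.58.1 (R 4.3.3, variance trend) was fitted on log2(FPKM + 1) with condition only, after it was tested on simulated data. Genes at 0 in every library were left out, and fold changes of low genes are understated. Group differences of single genes also got a two-sided exact permutation test. No fold is given where both groups lay at or near 3 fragments. The members, lists and tests were chosen with earlier results of these data known. Named were all members, up to 4 genes per list with the smallest p and a mean of at least 1 FPKM, and the 5 genes most correlated with the members and with Fos. Not every gene so named is described in the text. Alternatives were a pseudocount of 0.1, a mean FPKM of at least 1, upper quartile and median-of-ratios scaling, all listed transcripts, voom (with edgeR 4.0.16 TMM factors) on recovered fragments (tolerance 0.05 fragment), each library left out, a replicate block, the transcript list as a term, no mitochondrial genes, and thresholds of the paper (fold 2, adjusted p 0.001). Tables and plots used Python 3.11.15. Some results for single genes are left out here.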

Additional observations from a re-analysis of the deposited data

How the results depend on the processing

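Over 15 settings, 125 of 133 alternative values of the members' fold changes kept their direction and their side of the threshold, and 8 changed sign. Adjusted p of the members was never below 0.0967, and 0 members were called by any adjusted threshold, 1 at an unadjusted p of 0.05. The sign changes were 0.0679 (without NMDA + PBS replicate 2) and 0.13 (transcript list as a term) for Fosl2 (-0.38 to 0.0679 with one library left out) and 0.23 (transcript list as a term) for Junb. For Nr4a1 they were 0.000804 (upper quartile scaling), 0.29, 0.50 and 0.03 (without NMDA + PBS replicate 2, NMDA + SCF replicate 2 and NMDA + SCF replicate 3) and 0.51 (transcript list as a term), with a range of -0.58 to 0.50 when one library was left out. The cause was not tested. Egr1 and Atf3 had no value under the filter of at least 1 FPKM, and with the list as a term the control is NMDA + PBS replicate 1 alone.

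Genes called, 0 in the reported fit, were 2 with voom, 53 with the transcript list as a term, 2324 at an unadjusted p and 0 to 909 with one library left out, the highest without NMDA + PBS replicate 1 and 1 gene without NMDA + SCF replicate 2. List genes called were 0 to 11 and single transcripts 0 to 918 with one library left out, both highest without NMDA + PBS replicate 1, and 24 list genes were at an unadjusted p of 0.05. Thresholds of the paper called 0 genes. Members whose groups do not overlap, a count added after the data were seen, were 2 as deposited and 1 each without mitochondrial genes and with fragments scaled by TMM. Other settings gave 2, though not always the same genes. Over the settings of this count, 4.19 to 7.63% of all genes were higher and 6.13 to 8.81% lower without overlap.

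Libraries with the same replicate number did not deviate together (correlations -0.05, -0.05 and -0.08), so the numbers were not taken as pairs. With the replicate block, 0 genes and 0 members were called.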
